A study of Mus musculus with 6 samples.

Results

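The CHD genes encode 9 ATP-driven chromatin remodellers, Chd1 to Chd9, and are described here in sorted mouse photoreceptors in which Nr2e3 was targeted, beside photoreceptors given a control guide. All 9 symbols were present in each of the 6 count tables, among 49997 genes, and all 9 passed the filter on low counts, as did 17138 genes in all. The family was taken up because Chd7 was among the genes called higher with the Nr2e3 guide in a fit across all genes (edgeR quasi-likelihood test, adjusted p = 0.0410), and the members were then taken by name. The differences between the groups are therefore given as a description of these libraries and were not tested for the family.

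Each library holds RNA of about 100000 mCherry-positive cells sorted from the 2 retinas of 1 Rosa26-Cas9 mouse, a strain in which all cells make the nuclease SpCas9. Both groups received an adeno-associated virus with a 7m8 capsid under the retina, and mCherry was driven by the human GRK1 promoter, which is active in photoreceptors. The virus carried a guide against Nr2e3 in 3 mice (guide libraries; replicate 1 male, replicates 2 and 3 female) and a non-targeting control guide in 3 mice (control libraries, all male). Retinas were taken 6 months after the injection, whose age is given as postnatal day 21 in 1 place of the labels and as 4 weeks in another. Gene counts cannot show which share of the sorted cells carried a cut Nr2e3 gene, and in such bulk libraries fewer cells of a type and less RNA per cell cannot be told apart.

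CHD proteins pair a tandem chromodomain with an SNF2-type ATPase that slides, spaces or evicts nucleosomes. They fall into 3 subfamilies by their other domains. Chd1 and Chd2 carry a DNA-binding domain and work on transcribed genes. Chd3, Chd4 and Chd5 carry PHD fingers and are the alternative motors of NuRD, a complex that joins remodelling to histone deacetylation. Chd6, Chd7, Chd8 and Chd9 form the third subfamily, in which BRK domains are common. Chd7 acts at enhancers and is the gene mutated in CHARGE syndrome, which affects the eye, ear and heart, and Chd8 is known as a gene mutated in autism. Nr2e3 encodes a nuclear receptor that keeps cone genes low in rods.

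The ATP-binding loop is common to SNF2-type ATPases and present in all 9 members, and its coding sequence shows how the members differ at a shared site. The 60 coding bases around this loop (the Walker A motif) in GENCODE M21 transcripts are given below on the sense strand, 5′ to 3′. Capitals mark the 15 bases that encode the residues GLGKT of the motif.
Chd1: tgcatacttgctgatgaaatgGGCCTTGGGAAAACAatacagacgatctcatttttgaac
Chd2: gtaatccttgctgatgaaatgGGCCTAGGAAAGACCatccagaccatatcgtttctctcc
Chd3: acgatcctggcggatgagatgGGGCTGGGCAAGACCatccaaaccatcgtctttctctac
Chd4: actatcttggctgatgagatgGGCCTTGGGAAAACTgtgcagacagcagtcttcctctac
Chd5: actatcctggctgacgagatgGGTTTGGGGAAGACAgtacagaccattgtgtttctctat
Chd6: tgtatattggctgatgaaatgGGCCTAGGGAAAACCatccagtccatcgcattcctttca
Chd7: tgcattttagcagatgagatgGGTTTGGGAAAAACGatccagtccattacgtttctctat
Chd8: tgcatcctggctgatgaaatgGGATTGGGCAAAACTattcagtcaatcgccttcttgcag
Chd9: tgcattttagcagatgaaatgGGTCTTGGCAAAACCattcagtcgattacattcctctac

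In GRCm38 the Chd7 stretch lies at chr4:8826891-8826950 on the plus strand, in exon 12 of 38. Those of Chd1, Chd4, Chd5 and Chd9 also lie on the plus strand, at chr17:15735638-15735697, chr6:125107585-125107644, chr4:152367399-152367458 and chr8:90989437-90989496. Those of Chd2, Chd3, Chd6 and Chd8 lie on the minus strand, at chr7:73493572-73493631, chr11:69357720-69357779, chr2:161019629-161019688 and chr14:52221091-52221150. Each of the 9 lies within a single coding exon. Against Chd7, position by position, Chd9 had the most identical bases (50 of 60) and Chd4 the fewest (37 of 60). Over whole transcripts the longest run shared by Chd7 with another member was 23 bases, with Chd6, Chd8 and Chd9, and the longest run between any 2 members was 35 bases, between Chd3 and Chd4. Of 10167 different windows of 50 bases in the Chd7 transcript, 0 occurred in a transcript of any other gene. Chd2 shared 5.97% of its windows with the non-coding gene Chaserr, named 1810026B05Rik in GENCODE, and Chd8 shared 6.12% with Gm26590, an antisense gene, and the pseudogene Gm49656. Chd7 shared no annotated exon bases with another gene on either strand, whereas 953 exon bases of Chd8 overlap Gm26590 on the opposite strand. Gm26590 held 9 to 21 counts per library against 1213 to 2599 for Chd8. How reads in the shared bases were assigned is not known, so these counts do not show how many fell there. Promoter sequences were at hand for Chd4, Chd5, Chd6, Chd8 and Chd9 but not for Chd1, Chd2, Chd3 and Chd7.

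The libraries held between 24705561 and 34286248 gene counts. Levels are given as CPM, the count of a gene scaled to a common total of gene counts in each library, and 3 counts, the floor used here, stand for 0.0875 to 0.121 CPM. This floor covers counting error only. Nr2e3, the targeted gene, was at 2024, 1773 and 2303 CPM in guide libraries 1 to 3 and at 1695, 1608 and 1645 CPM in control libraries 1 to 3. All 3 guide libraries lay above the controls, the difference did not pass (log2 fold change 0.37, SE 0.13, edgeR adjusted p = 0.716), and a gene count does not read small insertions or deletions. All 10 rod markers were detected in all libraries, with a summed level of 154108 to 161287 CPM in guide and 159631 to 178709 CPM in control libraries. In the edgeR fit 8 of these rod markers had a positive and 2 a negative log2 fold change (median 0.09). Summed cone markers stood at 13738 to 16674 CPM in guide and 4154 to 8510 CPM in control libraries. Gnat2, Pde6c and Pde6h, 3 of the 10, were the cone markers that lay above all controls in every guide library. Over all genes tested this held for 4.63%. Without Gnat2 and Pde6c, but with Pde6h, the sums were 5364 to 7402 and 3894 to 7287 CPM. In the edgeR fit 4 of the 10 cone markers had a positive and 6 a negative log2 fold change (median -0.51), so the cone sums do not stand for most of the list. Pigment epithelium markers summed to 1.09 to 4.26 CPM in guide and 5.75 to 18 CPM in control libraries, and its defining gene Rpe65 had 0 counts in 4 libraries. Control replicate 3 stood apart, with all 10 microglia markers above both other controls, beside 50.7% of all genes tested. Its microglia sum was 309 CPM, against 29.4 and 33.8 CPM in the other controls and 32.6 to 158 CPM in guide libraries. In 9 of 10 cone and 7 of 10 rod markers it lay below both other controls, and in 1 and 3 above both. The low end of the control cone sums was this library (4154 CPM, against 7597 and 8510 CPM). The part of these cell types in the values below was not tested.

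Chd7 (GRCm38 chromosome 4, 8690402 to 8868449, plus strand) was the member with the largest difference between the groups. It held 5541, 4257 and 5965 counts in guide libraries 1 to 3 and 2388, 2992 and 3784 counts in control libraries 1 to 3. These are 203, 172 and 180 CPM in guide and 73.2, 88.2 and 110 CPM in control libraries. The groups did not overlap, and the lowest guide library, replicate 2, was 1.56 times the highest control, replicate 3. Means were 185 ± 16.0 and 90.6 ± 18.7 CPM (SD, n = 3 each), with a log2 fold change of 1.12 (SE 0.15). The matching fold is 2.17, or 1.95 to 2.41 at 1 SE to either side.

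By p, Chd7 was at place 49 of 17138 genes. Among the 54 genes called higher it was at place 49 by fold, so its difference was one of the smaller ones there. The other 8 members had adjusted p from 0.995 to 0.997. Thus 1 of 9 members passed the threshold, against 0.344% of all genes tested (0.315% called higher and 0.0292% called lower with the guide). By DESeq2 and by limma-voom it was also 1 of 9, against 1.59% and 1.04% of all genes tested. By separation of the groups in CPM it was 1 of 9, against 12.2% of all genes tested (4.63% with the guide higher and 7.55% with it lower). The family was chosen on this contrast and nothing is read from these counts.

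Chd7 passed the threshold in some fits and not in others. In 14 alternative settings the log2 fold change was 1.02 to 1.29, and 6 of them passed. Leaving out guide replicate 1, 2 or 3 gave log2 fold changes of 1.04, 1.13 and 1.17 (edgeR adjusted p = 0.203, 0.167 and 0.108). Leaving out control replicate 1 or 2 gave 1.02 and 1.10 (edgeR adjusted p = 0.199 and 0.305), and without control replicate 3 it was 1.23 (edgeR adjusted p = 0.0251). With sex as a term, where the value rests on the male guide replicate 1 against the male controls, it was 1.26 (edgeR adjusted p = 0.229). That male library had the highest Chd7 level of the 6.

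**Figure D1:**
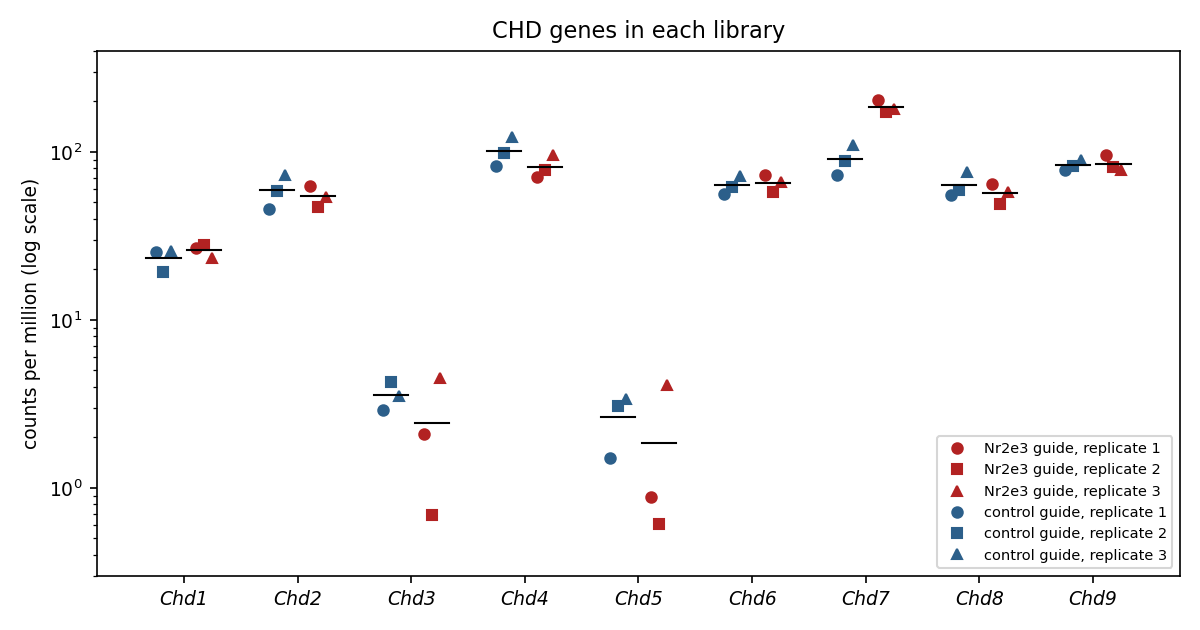
CPM of the 9 CHD genes in the 6 libraries, on a log scale; red points are Nr2e3 guide and blue points control guide libraries, symbols mark the replicate and black lines the group means. The 3 guide libraries of Chd7 (172 to 203 CPM) lie above its 3 controls (73.2 to 110 CPM), and in the other 8 genes the groups overlap.

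Chd6, Chd8 and Chd9, which share the subfamily of Chd7, had overlapping groups. Chd9 (chromosome 8, 90828302 to 91054516) was the member nearest to Chd7 over the 60 bases above, though not over the 15 in capitals. It was at 95.8, 81.2 and 77.8 CPM in guide and 77.8, 82.1 and 89.5 CPM in controls (log2 fold change 0.11, SE 0.14). Chd6 (chromosome 2, 160946978 to 161109086) was at 72.4, 58 and 66.6 CPM in guide and 55.8, 61.6 and 72.2 CPM in control libraries (0.13, SE 0.14). Chd8 (chromosome 14, 52198151 to 52258042), known to bind beta-catenin and CTCF, was at 64.5, 49.1 and 57.9 CPM in guide and 55.7, 59.2 and 75.8 CPM in control libraries (-0.07, SE 0.15). In all 3 genes control replicate 3 was the highest control.

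The ratio of Chd7 to its relatives within a library does not depend on how libraries are scaled. Chd7 had 2.81, 2.97 and 2.71 counts per count of Chd6 in guide libraries 1 to 3 and 1.31, 1.43 and 1.53 in control libraries 1 to 3. Per count of Chd8 the values were 3.15, 3.51 and 3.11 in guide and 1.31, 1.49 and 1.46 in control libraries. Per count of Chd9 they were 2.12, 2.12 and 2.32 in guide and 0.941, 1.08 and 1.23 in control libraries. Each ratio was higher in all guide libraries than in all controls, control replicate 3 included. Chd7 was taken up for its higher level in these same libraries. Its ratios here and its shares of the family below rest on those values and are no separate support.

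In the first subfamily, Chd1 (chromosome 17, 15704967 to 15772612), which spaces nucleosomes behind RNA polymerase II, was at 26.7, 27.8 and 23.4 CPM in guide and 25.3, 19.3 and 25.6 CPM in controls (log2 fold change 0.23, SE 0.20). Chd2 (chromosome 7, 73426652 to 73541746), which deposits the histone variant H3.3 and is mutated in a childhood epilepsy, was at 62.7, 46.8 and 54.0 CPM in guide and 45.7, 58.4 and 72.7 CPM in control libraries (-0.03, SE 0.18). Guide and control values overlapped for both genes.

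Chaserr, a long non-coding RNA upstream of Chd2 that is known to restrain Chd2 in cis, was at 14, 11.7 and 7.67 CPM in guide and 6.90, 7.46 and 10.8 CPM in controls (log2 fold change 0.50, SE 0.31, edgeR adjusted p = 0.995). Its groups overlapped through guide replicate 3 and control replicate 3. In GENCODE M21, 2628 exon bases are common to Chd2 and this gene on the same strand, and how reads there were assigned is not known.

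The NuRD motors differed in level far more than between the groups. Chd4 (chromosome 6, 125095980 to 125130591), the main NuRD ATPase of most tissues, was at 70.9, 78.1 and 95.3 CPM in guide and 82.8, 99.1 and 123 CPM in controls (log2 fold change -0.24, SE 0.16). Guide replicates 1 and 2 lay below all controls and guide replicate 3 between them. Chd3 (chromosome 11, 69343273 to 69369499) held 57, 17 and 149 counts in guide and 95, 145 and 120 counts in control libraries, or 2.09, 0.688 and 4.50 against 2.91, 4.28 and 3.50 CPM (-0.51, SE 0.59). Chd5 (chromosome 4, 152338646 to 152390194), the NuRD ATPase known from neurons, held 24, 15 and 135 counts in guide and 49, 104 and 116 counts in control libraries, or 0.880, 0.607 and 4.08 against 1.5, 3.07 and 3.38 CPM (-0.46, SE 0.71).

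For Chd3 and Chd5, guide replicates 1 and 2 lay below all controls and guide replicate 3 above all of them. Without guide replicate 3 the log2 fold change of Chd5 was -1.70, and over the 14 settings it ran from -1.70 to -0.06. The summed level of 9 amacrine markers was 160, 57.2 and 286 CPM in guide libraries 1 to 3 and 286, 345 and 145 CPM in control libraries 1 to 3, lowest in guide replicate 2, as were Chd3 and Chd5. Summed ganglion cell markers were 41.2, 20.4 and 62.9 CPM in guide and 51.7, 84.1 and 21.3 CPM in control libraries. In control replicate 3 the amacrine and ganglion sums were the lowest of the controls, while Chd5 was the highest. Summed Muller glia markers were 165, 166 and 380 CPM in guide and 384, 392 and 203 CPM in control libraries. For this sum guide replicates 1 and 2 lay below all controls, as for Chd3 and Chd5. Guide replicate 3 lay between the controls, whereas for Chd3 and Chd5 it lay above all of them. Control replicate 3 had the lowest Muller sum of the controls but their highest Chd5 level. The part of such cells in the Chd3 and Chd5 values was not tested.

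**Figure D2:**
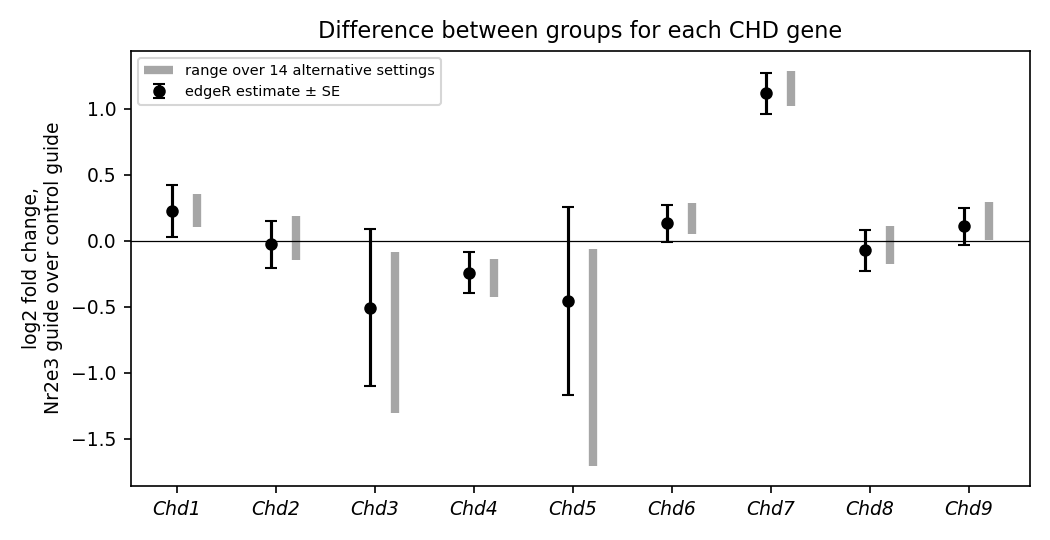
Log2 fold change of each CHD gene, Nr2e3 guide over control guide; points are the edgeR estimate with 1 SE to either side, and grey bars the range over 14 alternative settings. Chd7 lies at 1.12 with a range of 1.02 to 1.29, and the other 8 estimates lie between -0.51 and 0.23.

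Across the family, 4 members had a positive and 5 a negative log2 fold change. The median was -0.03, beside -0.01 over all genes tested. Summed over the 9 genes, CHD transcripts made up 599, 515 and 564 CPM in guide and 421, 475 and 576 CPM in control libraries, and the groups overlapped. Without Chd7 the sums were 396, 342 and 384 CPM in guide and 348, 387 and 466 CPM in control libraries. Chd7 alone took 33.9, 33.5 and 32.0% of the family's counts in guide and 17.4, 18.6 and 19.2% in control libraries. This share varied little within a group, at 33.1% ± 1.02 against 18.4% ± 0.895 (SD, n = 3 each).

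Chd4 took 11.8, 15.2 and 16.9% of the family's counts in guide and 19.7, 20.9 and 21.4% in control libraries. A larger share of Chd7 lowers all other shares, so the same was computed among the other 8 genes. There Chd4 took 17.9 to 24.8% in guide and 23.8 to 26.4% in control libraries, and the groups overlapped. Chd6 took 16.9 to 18.3% of that sum in guide and 15.5 to 16.1% in control libraries, without overlap but with a small distance. Such a share also depends on the levels of the other genes in the sum, and the CPM of Chd6 itself overlapped between the groups.

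**Figure D3:**
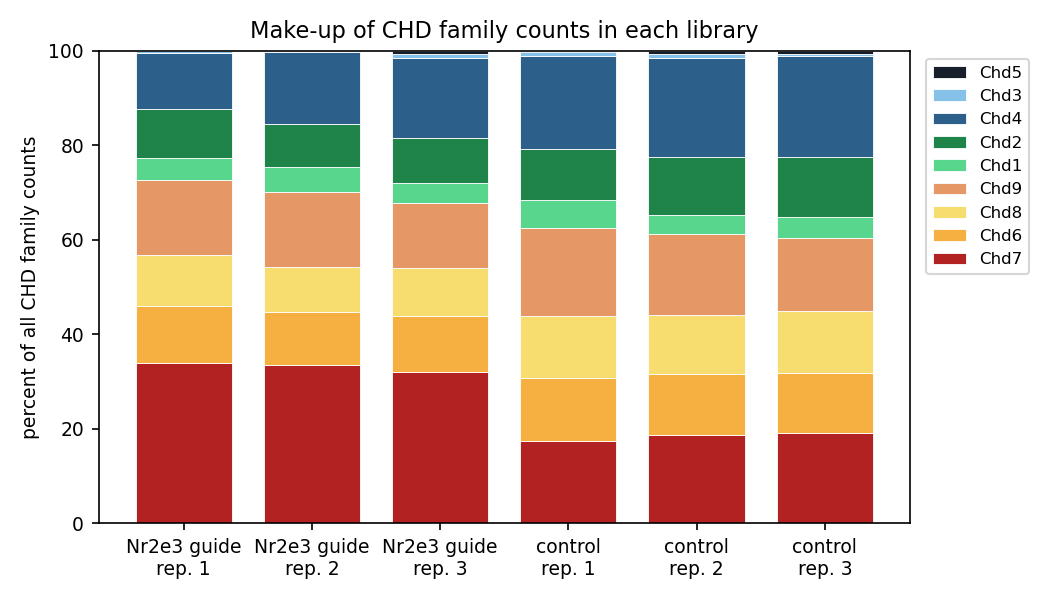
Make-up of the counts of the 9 CHD genes in each library, in percent of the family's total; bars are libraries and colours genes. The Chd7 segment at the bottom takes 32.0 to 33.9% in guide and 17.4 to 19.2% in control libraries.

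The shares and ratios above are of counts, in which a longer transcript weighs more. Per length, Chd7 took 30.6 to 34.1% of the family in guide and 16.6 to 18% in control libraries. The order of the members by level was therefore taken per length, as CPM per kilobase of merged exons (RPKM). In control libraries Chd4 was the highest member at 12.7 ± 2.52 RPKM (SD, n = 3), followed by Chd7 at 6.57 ± 1.36 RPKM, and these ranges did not overlap. Chd2 (4.12 ± 0.944 RPKM), Chd8 (3.85 ± 0.651 RPKM), Chd9 (3.59 ± 0.257 RPKM), Chd6 (3.31 ± 0.436 RPKM) and Chd1 (2.69 ± 0.408 RPKM) followed, and each of them overlapped its neighbour in this order. Chd3 (0.422 ± 0.0811 RPKM) and Chd5 (0.277 ± 0.105 RPKM) were far below the rest and overlapped each other.

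In guide libraries the first 2 places were exchanged. Chd7 was at 14.7, 12.5 and 13.1 RPKM and Chd4 at 8.85, 9.74 and 11.9 RPKM, so that Chd7 was the higher of the pair in each guide library. In control libraries it was the lower of the pair, at 5.31, 6.40 and 8.01 RPKM against 10.3, 12.4 and 15.3 RPKM. With the longest transcript as the length, Chd4 and Chd7 held the same places in both groups, while Chd2 moved from place 3 to place 5 in control libraries.

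**Figure D4:**
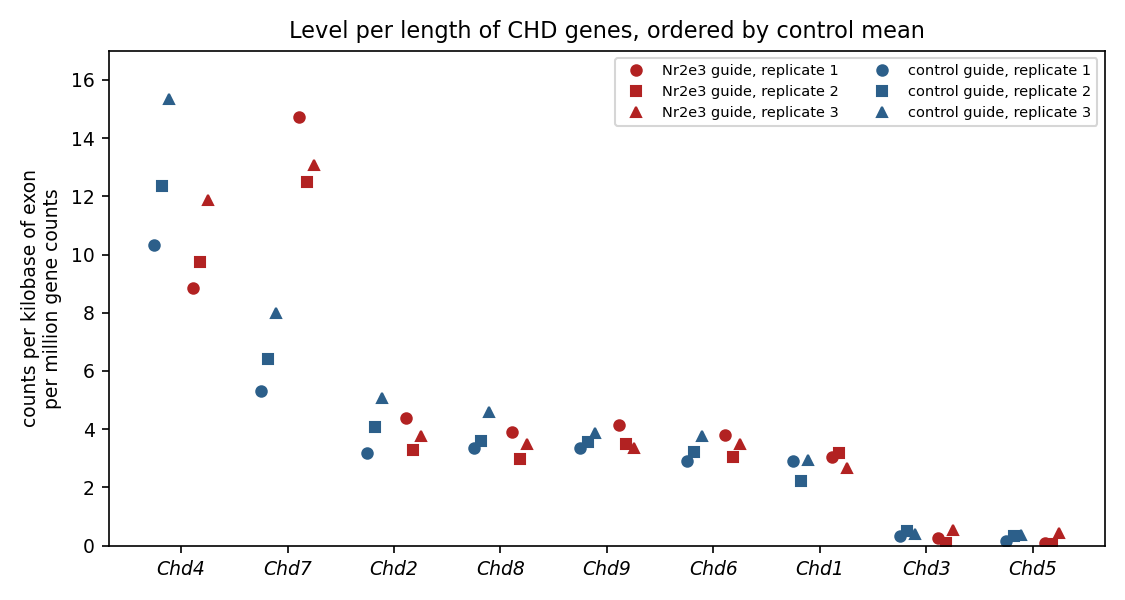
Level per length of the CHD genes in RPKM, ordered by the control mean; red points are Nr2e3 guide and blue points control guide libraries. Chd4 leads in controls (10.3 to 15.3) and Chd7 in guide libraries (12.5 to 14.7), while Chd3 and Chd5 stay below 1 in all 6.

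Among the 9 genes, 8 had their highest control CPM in control replicate 3, and 7 did so after TMM scaling. Over all genes tested the same held for 50.7% and 42.4%. For Chd7 this library was the control nearest to the guide libraries, and the estimate without it was 1.23 on the log2 scale.

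The transcripts most like Chd7 over the 6 libraries were sought among 8746 named genes with a mean of at least 5 CPM, by Pearson r of log2 CPM after TMM scaling. They were Napb, a SNAP protein of vesicle fusion (r = 0.995), Chid1 (0.990), Ccdc186 (0.990), Rasgrf2, a Ras exchange factor (0.988), and Ube3c, a ubiquitin ligase (0.987). With 6 points that fall into 2 groups, and with control replicate 3 the highest and replicate 1 the lowest control in all of these genes, such values are a description. Napb was at 239, 223 and 228 CPM in guide and 104, 114 and 151 CPM in controls (log2 fold change 0.99, SE 0.14, edgeR adjusted p = 0.0493) and was the only one of the 5 past the threshold. The others had log2 fold changes of 0.22 to 0.37. The order of likeness changed with the scaling. On CPM without TMM the 5 values were 0.994 for Napb, 0.939 for Chid1, 0.828 for Ccdc186, 0.932 for Rasgrf2 and 0.923 for Ube3c, and 1 of the 5 was still among the 5 highest. Within the family, Chd6 had the highest r with Chd7, 0.71 with TMM scaling and 0.49 without it.

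Other remodeller and partner genes were tested in the same fit, on the question whether genes of the same machinery differed too. Of 116 tested genes in 8 lists, 0 passed in edgeR, in DESeq2 or in limma-voom. Over all genes tested, 0.344% passed in edgeR, 1.59% in DESeq2 and 1.04% in limma-voom. At such shares few calls would fall among 116 genes, and nothing is read from the 0. In edgeR 2 of the 116 genes, Leo1 and Actl6b, were under 0.05 before adjustment, beside 5.69% of all genes tested. The median log2 fold change of the 116 genes was -0.01, with 55 positive and 61 negative values.

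NuRD subunits are partners of Chd3, Chd4 and Chd5, and ChAHP subunits are partners of Chd4. Their common list held 16 tested genes with a median log2 fold change of -0.04. The smallest p belonged to the deacetylase Hdac2 (20.6 ± 3 against 17.8 ± 0.758 CPM, log2 fold change 0.29, SE 0.19, edgeR adjusted p = 0.995) and to Gatad2b, a NuRD scaffold (-0.19, SE 0.15). Of 11 elongation partners of Chd1 and Chd2, Leo1 of the Paf1 complex was at 65.5 ± 12.8 against 89.3 ± 14.5 CPM (-0.37, SE 0.16, edgeR adjusted p = 0.877), and Supt5 was at -0.26 (SE 0.16), with a list median of -0.20. Of 12 genes of H3K4 methylation with Ctcf, which work beside Chd8, the methyltransferase Kmt2a was at 175 ± 37.6 against 304 ± 187 CPM (-0.70, SE 0.36, edgeR adjusted p = 0.957). Control replicate 3 alone held 517 CPM of Kmt2a, against 169 and 226 CPM in the other controls. Men1, a Kmt2a partner, was at -0.36 (SE 0.24), and the list median was -0.01.

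SWI/SNF, whose PBAF form is known to work with Chd7, held 28 tested genes with a median of -0.07. Actl6b, the actin-like subunit of neurons, was at 1.06, 2.59 and 4.02 CPM in guide and 4.87, 5.01 and 10.7 CPM in controls (log2 fold change -1.34, SE 0.52, edgeR adjusted p = 0.796). Its groups did not overlap, and the difference did not pass. Smarcc1, a core scaffold, was at 18.2 ± 0.598 against 14.4 ± 2.62 CPM (0.42, SE 0.19, edgeR adjusted p = 0.915).

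In the ISWI list (10 tested genes, median 0.06) the ATPase Smarca5 was at 0.32 (SE 0.19) and Cecr2 at -0.22 (SE 0.15). In the INO80 and SWR list (23 genes, median -0.01) the ATPase Ep400 was at -0.34 (SE 0.16) and Mcrs1 at 0.22 (SE 0.16). Among 15 other SNF2-type genes (median 0.06), Atrx was at -0.24 (SE 0.18) and Btaf1 at -0.21 (SE 0.16). Chd1l, which resembles Chd1 in its ATPase but has no chromodomain, was at 13.1 ± 0.306 against 15.6 ± 1.55 CPM (-0.18, SE 0.20, edgeR adjusted p = 0.995). These p-values do not show that levels were equal. Besides Actl6b, the one gene of the lists with a log2 fold change as large as that of Chd7 in size was Dpf1, a SWI/SNF subunit (-1.32, SE 0.89, edgeR adjusted p = 0.995), at under 1.17 CPM in all libraries.

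**Figure D5:**
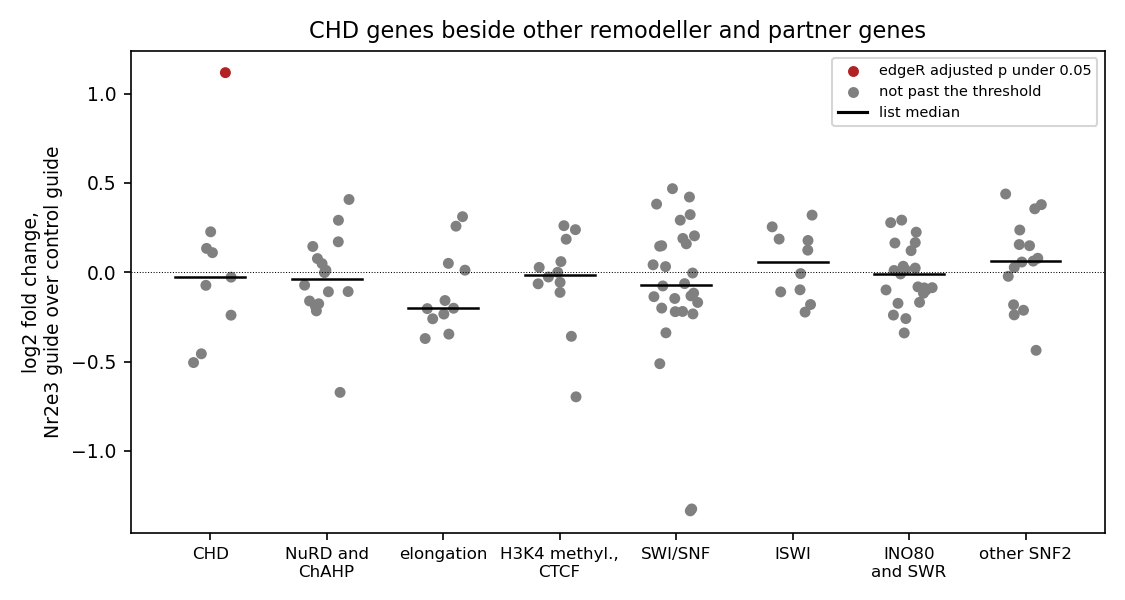
Log2 fold change of the CHD genes and of the tested genes in 7 lists of remodeller and partner genes, Nr2e3 guide over control guide; each point is a gene, black lines are list medians and red marks edgeR adjusted p under 0.05. Chd7 at 1.12 is the only red point, and the list medians lie between -0.20 and 0.06.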

How the data were processed

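RNA of sorted photoreceptors was counted in 6 libraries, 3 per group. The deposited values are raw counts per gene symbol. The build GRCm38 (mm10) and, with no role or order, DESeq2 1.42.0, HTSeq 0.12.4, STAR 2.7.3a and cutadapt are named per the submitters' processing notes. No annotation or strand setting was given in the sources used here, and the SMARTer Ultra Low kit named in the labels' protocols does not mark strand. The 5 entries without a gene (21.6 to 23.7% of counts) were left out.

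CPM are raw counts over each library's gene-count total; TMM factors enter the fold changes and the correlations between genes. Groups were compared in edgeR 4.0.16 (R 4.3.3) with TMM factors, filterByExpr (min.count 10), glmQLFit and glmQLFTest. The model held the group alone, and p-values were adjusted by Benjamini-Hochberg over all genes tested (threshold 0.05). SE is the log2 fold change divided by the root of the F statistic. The script was tested on simulated data. Libraries of a group come from separate mice, and no pair was as close as sampling noise allows. DESeq2 1.42.0, limma-voom 3.58.1, other scalings, no filter, sex, replicate and left-out libraries were alternatives, of which library totals without TMM (for fits and correlations) was chosen after seeing the data. Gene positions are from RefSeq (GRCm38.p6); exon lengths, overlaps and transcripts are from GENCODE M21 (GRCm38).

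Members and lists were chosen with earlier results of these data known. All 9 members are named. In each list, called genes or else the 2 of smallest p are named, and the 5 genes most like the member of smallest p, leaving out sex-linked and unnamed transcripts. Dpf1 was chosen after its values were seen.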

Additional observations from a re-analysis of the deposited data

How the results depend on the processing

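Chd7 was higher in the guide libraries in all 14 settings. It passed with DESeq2 size factors (log2 fold change 1.11, adjusted p = 0.0390), with no count filter (1.10), with the DESeq2 test (1.11, adjusted p = 3.19e-07), with limma-voom (adjusted p = 0.00275), without control replicate 3 and without both replicate-3 libraries (1.29). It did not pass with library totals in place of TMM (log2 fold change 1.03, edgeR adjusted p = 0.113), with sex as a term (1.26) or with the replicate block (1.12, edgeR adjusted p = 0.158), where 0 CHD genes were called instead of 1. Leaving out 1 library at a time gave 1.02 to 1.23, and 0 to 1 CHD genes called. The other pathway genes had 0 calls in all of these settings. Of 112 values of the other 8 members, 2 moved by more than the spread of replicates (Chd5 without guide replicate 3, -1.70, and Chd9 with sex as a term, 0.29) and 10 had the other sign, all in Chd2 (6) and Chd8 (4).

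Over all genes the 54 higher and 5 lower calls became 130 and 25 with no filter, 201 and 70 with DESeq2, 160 and 19 with limma-voom, 31 and 1 with the replicate block, 6 and 0 with sex as a term and 39 and 3 with library totals. Leaving out 1 library gave 14 to 80 higher and 0 to 9 lower. The cause of these shifts was not tested. Replicate numbers name different mice and did not pair the libraries: deviations of same-numbered libraries correlated at 0.136, -0.144 and 0.0441. With the longest transcript as length, control levels were 6.49 for Chd2, 6.01 for Chd6, 8.87 for Chd7, 7.47 for Chd8 and 6.92 RPKM for Chd9. Chd3 and Chd5 held 15 to 149 counts per library and had the largest SEs of the 9 members, 0.59 and 0.71.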
